A study of Sus scrofa with 32 samples.

Results

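Loin muscle RNA of pure Dapulian pigs was set against that of both Dapulian crosses pooled, to find genes that differed from each cross in the same direction. The comparison took 24 of the 32 libraries of the series by their labelled breed: 8 DPL from pure Dapulian pigs, 8 LDPL from Landrace x Dapulian pigs, and 8 DLDPL from Duroc x Landrace x Dapulian pigs. Both crosses were given equal weight, so LDPL and DLDPL each counted alike among the 16 cross libraries. Dapulian is an indigenous Chinese breed, while Landrace and Duroc are commercial breeds used for lean growth. The labels of the 24 libraries give wild type pigs of 6 months, kept on similar feed in a similar environment. The tissue was the longissimus dorsi, the long muscle of the loin. The labels give neither sex, litter, body weight nor batch, and the crosses themselves carry Dapulian ancestry. The labels do not say that the 24 libraries came from separate animals, so the p-values cover no more than the spread between libraries, which may be technical.

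Muscle fibres differ in how they make ATP. Slow, oxidative fibres are rich in mitochondria, in which pyruvate and fatty acids are oxidised by the tricarboxylic acid (TCA) cycle and the respiratory chain. Fast, glycolytic fibres rely more on glycogen and glycolysis, release calcium in short bursts and end glycolysis in lactate. The loin is a largely fast muscle in pigs, and the fibres lie in a collagen matrix made by fibroblasts.

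Enough reads for a test were found for 12477 genes, and these genes held 21722008 to 29724482 uniquely mapped reads per library. The labelled tissue was matched by its markers: ACTA1 (skeletal actin), DES (desmin), NEB (nebulin) and PYGM (muscle glycogen phosphorylase) were detected in all groups, at a summed 44848 to 98397 CPM in DPL and 54833 to 103792 in the crosses. These were the 4 tested of 14 listed symbols, and the others were absent from the matched names or had too few reads. Levels are CPM, reads scaled to a common library total with TMM factors that correct for composition. Principal component 1 held 12.6% of the variance, and on it the 8 DPL libraries lay from -37.3 to -9.18 and the 16 cross libraries from -5.41 to 31.1. DPL replicate 23, LDPL replicate 10 and DLDPL replicate 32 stood apart from their groups in several genes. The counts below were repeated without these 3. Genes of the mitochondrial and interferon lists were among those that set them apart, so for these lists the repeats are no independent check.

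Of the 12477 genes, 608 differed between DPL and the pooled crosses at an adjusted p under 0.05 (4.87%, edgeR quasi-likelihood test), with 331 higher in DPL (2.65%) and 277 lower (2.22%). On the deposited RPKM with limma, 670 genes were called, of which 122 were higher and 548 lower. That fit differs in test, transform and scaling at once, and another scaling alone (upper-quartile, edgeR) gave 297 higher and 307 lower. The RPKM are scaled to all reads, including those of the mitochondrial genome, and on that scale the median log2 change of all genes was -0.08, against -0.01 in the edgeR fit. Against LDPL alone 206 genes were called (1.65%), 112 higher in DPL (0.898%) and 94 lower (0.753%). Against DLDPL alone 378 were called (3.03%), 185 higher in DPL (1.48%) and 193 lower (1.55%). The 2 single comparisons share the DPL libraries.

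A gene was counted as differing the same way in both crosses when it was called with 1 sign in the pooled and in both single comparisons. That held for 100 genes (0.801% of those tested), 46 higher in DPL (0.369%) and 54 lower (0.433%). No gene was called in opposite directions against the 2 crosses. The rises were small, with a median log2 change of 0.58 and 6 of 46 at 2-fold or more. The falls were larger, with a median of -0.99 and 26 of 54 at 2-fold or more. Of the 100, 75 had a gene symbol. Among these, 19 encode mitochondrial proteins, of which 18 were higher in DPL, by log2 changes of 0.33 to 0.77, and ALDH2 was lower. The 6 that encode extracellular matrix proteins were all lower, by -2.17 to -0.86, and so were the 3 that act in cell division. These roles were assigned after the values were seen and were counted only among the 75. No share over all tested genes is at hand, so the counts do not show an excess of any role. On the RPKM scale the 18 higher mitochondrial genes were again higher, and 13 of them kept their call. The 25 genes without a symbol, 9 higher (0.44 to 1.52) and 16 lower (-2.17 to -0.44), are not described further. When any single library was left out, 100 of the 100 kept their pooled call and 44 met the rule for both crosses in each of the 24 fits. The count of 100 fell to 61 without LDPL replicate 5, 65 without DLDPL replicate 6, 56 without LDPL replicate 10 and 61 without DPL replicate 21. Without the 3 libraries that stood apart it was 60.

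For 6 genes (0.0481% of those tested) the 8 DPL and 16 cross libraries did not overlap. PDK2, NDUFV1, ACOT8 and NR1H3 were higher in every DPL library than in any cross library (0.0321%). SLC16A12 and COL21A1 were lower in every DPL library than in any cross library (0.016%). NR1H3, ACOT8, SLC16A12 and COL21A1 were singled out after their values were seen. NR1H3 (a nuclear receptor for oxysterols) had 22.6, 24.9 and 35.3 CPM in DPL (lowest, median and highest library), against 13.4, 17.3 and 22.0 CPM in the crosses. SLC16A12 (a transporter of the monocarboxylate family) had 0.135, 0.748 and 1.18 CPM in DPL, against 1.31, 2.29 and 4.27 CPM in the crosses.

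**Figure D1:**
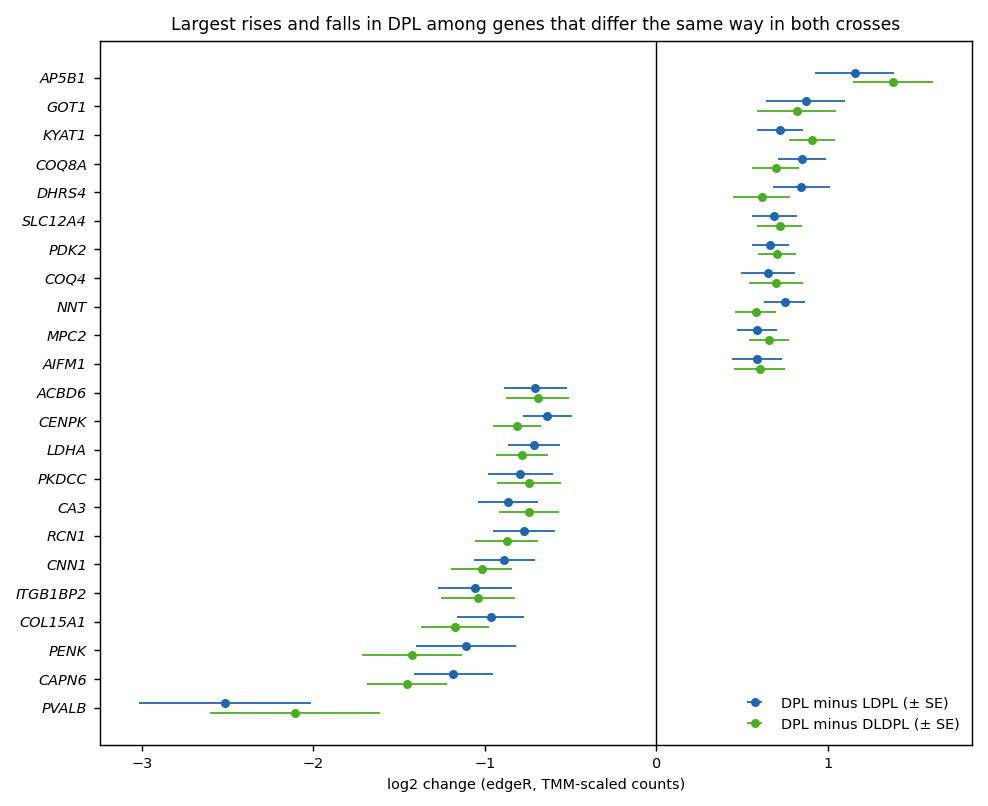
Log2 change (x axis, edgeR on TMM-scaled counts) of 11 of the 12 largest rises and the 12 largest falls in DPL among genes that differed the same way in both crosses, with DPL minus LDPL in blue and DPL minus DLDPL in green. Bars are ± 1 SE. Both points of each gene lie on 1 side of 0 because the selection required it. They run from 1.38 for AP5B1 against DLDPL to -2.52 for PVALB against LDPL.

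Some genes of the respiratory chain rose in DPL, with at least 1 called subunit in each of the 5 complexes. Of 97 listed symbols for nuclear subunits of complexes I to V, 43 were tested. Of these 43, 13 rose and 0 fell in the pooled comparison, 37 had a positive change and the median log2 change was 0.29. Over all genes the rising share was 2.65% and the median -0.01. Summed over the 43 genes the level was 7275, 8407 and 11854 CPM in DPL (lowest, median, highest) and 5653, 7322 and 8628 CPM in the crosses, so the ranges overlapped. With limma on the RPKM, 4 of the 43 were called higher and 1 lower, with a median of 0.16. Over the 24 fits that leave out 1 library, 9 to 16 were called higher and 0 lower, and without the 3 libraries that stood apart 9 were.

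NDUFV1 (the subunit of complex I that takes electrons from NADH) had 93.1, 106 and 157 CPM in DPL, against 62.3, 76.2 and 92.0 CPM in LDPL and 74.0, 80.1 and 89.6 CPM in DLDPL. All 8 DPL libraries lay above all 16 cross libraries. The pooled log2 change was 0.49 ± 0.08 (SE, edgeR adjusted p = 0.00122). UQCRC1 (a core subunit of complex III) had 293, 307 and 442 CPM in DPL, against 157, 237 and 263 CPM in LDPL and 201, 231 and 295 CPM in DLDPL. The lowest DPL library fell just inside the range of DLDPL and the other 7 lay above it (0.50 ± 0.10, adjusted p = 0.00456). SDHA (the flavoprotein of complex II, which also serves the TCA cycle) had 129, 172 and 201 CPM in DPL, against 99.3, 131 and 142 CPM in LDPL and 115, 128 and 157 CPM in DLDPL. Here 6 DPL libraries exceeded all cross libraries (0.39 ± 0.08, adjusted p = 0.00867, and 0.0962 by limma on the RPKM). With 1 library left out, SDHA met the rule for both crosses in 6 of 24 fits.

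The other called subunits did not meet the threshold against both crosses singly. In complex I these were NDUFA8, NDUFA9, NDUFA10, NDUFA11 and NDUFB10, with pooled log2 changes of 0.33 to 0.39. In complex IV, cytochrome oxidase, COX4I1 averaged 557 ± 170 CPM in DPL, 380 ± 71.0 in LDPL and 378 ± 81.1 in DLDPL (n = 8 each, ± SD), COX5B averaged 467 ± 102, 331 ± 55.1 and 328 ± 51.5 CPM in the same order, and COX5A also rose (0.36 ± 0.09). The calls of COX4I1 and COX5A were lost without DPL replicate 23. In complex V, the ATP synthase, ATP5F1A (0.40 ± 0.11, adjusted p = 0.0296) and ATP5MC1 (0.31 ± 0.09, adjusted p = 0.0483) rose, but ATP5MC1 lost its call in 20 and ATP5F1A in 6 of 32 other settings. Of 24 factors that assemble the complexes, 2 rose (ECSIT and SDHAF2) and 0 fell, with a median of 0.04, where 2.65% of all genes rose.

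The 13 protein genes of the mitochondrial genome itself all had a positive change, with a median log2 change of 0.55, and 5 were called: CYTB (0.70 ± 0.19), ATP8 (0.69 ± 0.18), ND1 (0.67 ± 0.18), ATP6 (0.64 ± 0.18) and COX3 (0.59 ± 0.17). Of all genes 2.65% rose, and none of these 5 passed the test against each cross singly. The count was sensitive to single libraries. It was 1 without DPL replicate 16, 21 or 23, 3 without LDPL replicate 5 or 10 or DLDPL replicate 27, 8 without LDPL replicate 4 or DPL replicate 11, 9 without DLDPL replicate 20, and 1 without the 3 libraries that stood apart. These genes took 22.2%, 32.9% and 37.3% of all reads in DPL (lowest, median, highest), against 15.8%, 23.3% and 30.0% in LDPL and 14.8%, 23.5% and 29.7% in DLDPL. DPL replicates 11, 30 and 26 lay within the range of the crosses. The difference between DPL and the mean of both crosses was 8.49 percentage points, and 7.63 to 9.79 with any library left out. Leaving these 13 genes out of the counts gave 609 called genes in place of 608.

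**Figure D2:**
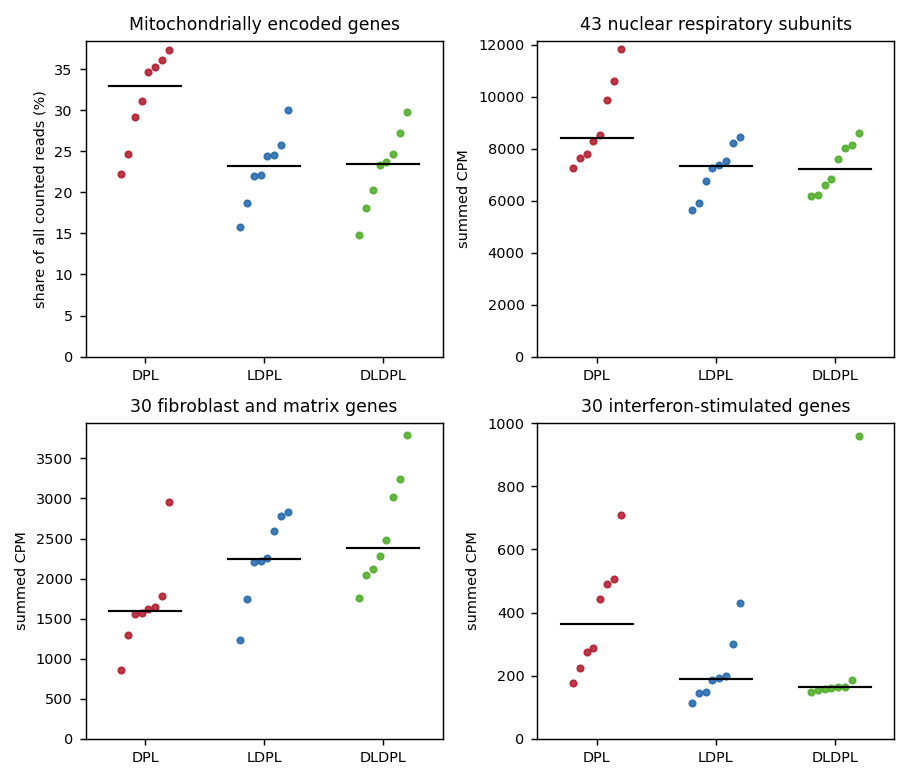
Values per library in DPL, LDPL and DLDPL (8 libraries each, black line at the median): share of reads on the 13 mitochondrially encoded genes (%), and summed CPM of 43 nuclear respiratory subunits, 30 fibroblast and matrix genes and 30 interferon-stimulated genes. The mitochondrial share has a median of 32.9% in DPL, and 1 DLDPL library stands at 959 CPM of interferon-stimulated genes.

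Some enzymes that feed the chain rose as well, against 2.65% rising over all genes. Of 18 TCA cycle genes, 6 rose and 0 fell (median 0.27), fatty acid oxidation had 5 rises and 0 falls in 22 genes (median 0.32), and the TCA count was 10 without DLDPL replicate 32. Without the 3 libraries that stood apart, 4 TCA and 3 oxidation genes were called, all higher. PDHA1 (the E1 subunit of pyruvate dehydrogenase) had 394, 565 and 683 CPM in DPL, against 262, 371 and 440 CPM in LDPL and 292, 378 and 470 CPM in DLDPL. All DPL libraries but the lowest lay above both crosses (0.57 ± 0.10, adjusted p = 0.00256). PDK2 (a kinase that switches pyruvate dehydrogenase off) had 123, 157 and 183 CPM in DPL, against 68.5, 92.8 and 122 CPM in LDPL and 76.4, 91.6 and 112 CPM in DLDPL. The groups did not overlap, and the rise was 1.61-fold (log2 0.68 ± 0.09, adjusted p = 0.000345). PDK4, another kinase of that family, was at 3625 ± 1556 CPM in DPL, 2569 ± 1261 in LDPL and 1945 ± 579 in DLDPL (n = 8 each, ± SD), and it was not called (0.70 ± 0.24, adjusted p = 0.0915, and 0.046 by DESeq2).

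MPC2 (a subunit of the carrier that brings pyruvate into mitochondria) had 163, 189 and 233 CPM in DPL, against 93.1, 119 and 176 CPM in LDPL and 105, 122 and 144 CPM in DLDPL. In 4 of 8 DPL libraries it exceeded every cross library (0.62 ± 0.10, adjusted p = 0.000835). HADHA (the trifunctional enzyme of fatty acid oxidation) had 346, 383 and 578 CPM in DPL, against 176, 291 and 355 CPM in LDPL and 205, 267 and 339 CPM in DLDPL (0.57 ± 0.11, adjusted p = 0.00453). In 7 of 8 DPL libraries it was above all cross libraries. HADHB, ACADS, ETFDH and ACSL1 (which activates long-chain fatty acids) made up the other calls of the oxidation list, at 0.39 to 0.61. In the TCA list MDH2, IDH2, DLST and the cytosolic MDH1 rose as well, by 0.28 to 0.56.

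Several larger rises sit beside these pathways. COQ8A (needed to make coenzyme Q) had 352, 511 and 722 CPM in DPL, against 226, 267 and 357 CPM in LDPL and 239, 292 and 420 CPM in DLDPL, a 1.71-fold rise (0.77 ± 0.12, adjusted p = 0.000483). COQ4, of the same synthesis, rose 1.59-fold, and NNT (a proton-driven source of mitochondrial NADPH) also 1.59-fold. GOT1 (the cytosolic aspartate aminotransferase of the malate-aspartate shuttle) had 68.6, 190 and 258 CPM in DPL, against 57.6, 83.7 and 167 CPM in LDPL and 54.5, 99.5 and 145 CPM in DLDPL. In 5 DPL libraries it exceeded every cross library and in 1 it lay below the cross median of 97.1 CPM (0.84 ± 0.19, adjusted p = 0.0114). With 1 library left out, GOT1 met the rule for both crosses in only 4 of 24 fits. KYAT1 (kynurenine aminotransferase) rose 1.76-fold and exceeded every cross library in 7 of 8. AIFM1 (a flavoprotein of the space between the mitochondrial membranes) rose 1.51-fold, although DPL replicate 19 was at 40.2 CPM, inside the crosses. ESRRA (a nuclear receptor that drives mitochondrial genes) rose in the pooled comparison (0.63 ± 0.14, adjusted p = 0.00986). It was the only call among 17 genes of mitochondrial biogenesis and dynamics, where 2.65% of all genes rose. PPARGC1A, its coactivator, spanned 10.8 to 177 CPM in DPL and 9.48 to 209 CPM in the crosses and was not called (-0.20 ± 0.50, adjusted p = 0.871).

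Genes of mitochondrial translation and import were also counted, beside 2.65% rising over all genes. Of 44 proteins of the mitochondrial ribosome 5 rose and 0 fell, with a median of 0.14, or 0.00 on the RPKM scale. The count was 3 without DPL replicate 11 and 8 without DPL replicate 16. MRPL38 had 37.8, 42.0 and 47.5 CPM in DPL, against 23.6, 30.2 and 38.8 CPM in LDPL and 24.6, 33.3 and 38.5 CPM in DLDPL (0.42 ± 0.09, adjusted p = 0.00719). Of 23 genes of protein import 2 rose, TOMM40 (the pore of the outer membrane) and TIMM13, with a median of 0.10 that was -0.01 on the RPKM scale. The import count was 1 without DPL replicate 11 or 21 and 4 without DPL replicate 19. TUFM, IMMT, OXA1L and PHB2, which work in mitochondrial translation, cristae, membrane insertion and the prohibitin complex, also rose the same way against both crosses, by 0.33 to 0.48. With 1 library left out, PHB2 met that rule in 24 of 24 fits, OXA1L in 16, IMMT in 6 and TUFM in 5. They were named after their values were seen.

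**Figure D3:**
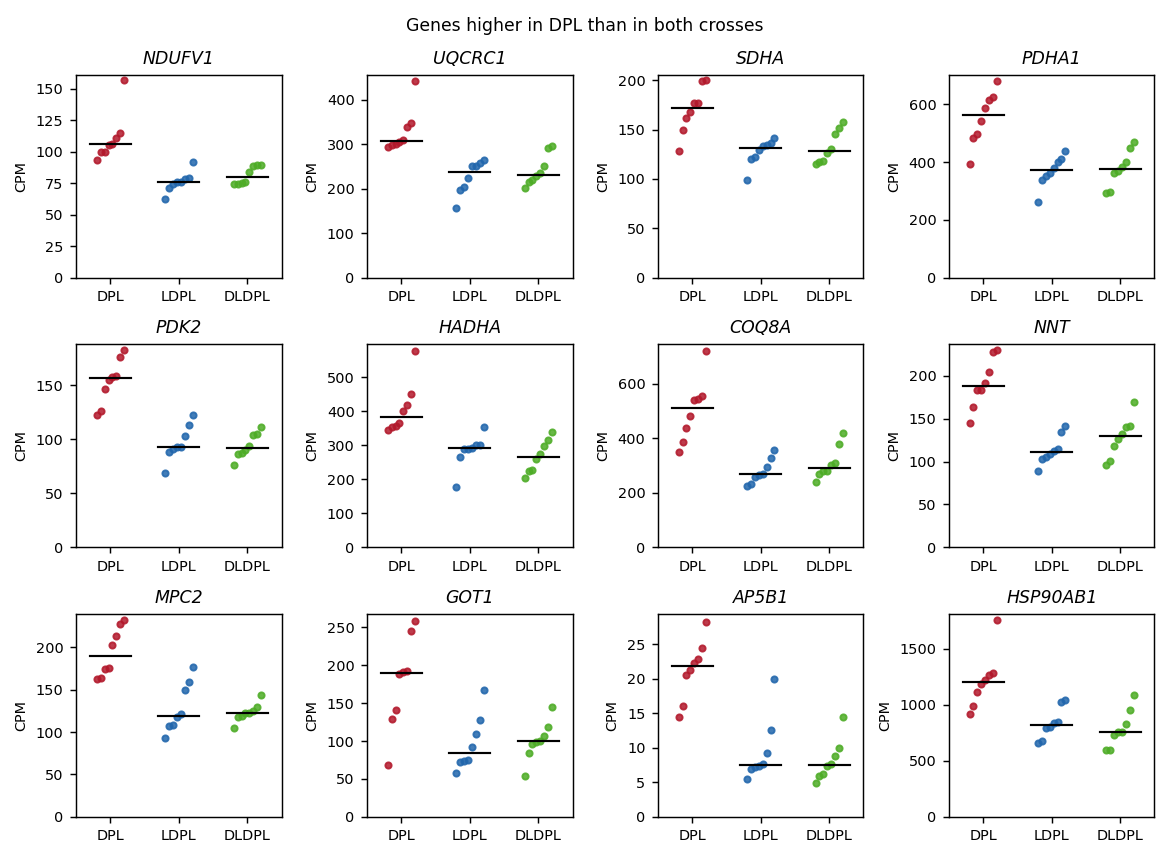
CPM per library (y axis from 0) of 12 genes higher in DPL than in both crosses, with 8 libraries each of DPL, LDPL and DLDPL and a black line at the median. NDUFV1 and PDK2 show no overlap between DPL and the crosses, and the other 10 genes overlap in at least 1 library.

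Among well-expressed genes called the same way in both crosses, the largest rise was that of AP5B1 (a subunit of the adaptor complex AP-5, which sorts cargo from late endosomes). It had 14.4, 21.8 and 28.3 CPM in DPL, against 5.46, 7.50 and 20.0 CPM in LDPL and 4.94, 7.52 and 14.5 CPM in DLDPL. That is 2.41-fold (1.27 ± 0.19, adjusted p = 0.000483), with 6 DPL libraries above every cross library and 1 library of each cross within the DPL range. SLC12A4 (a potassium-chloride cotransporter) rose 1.63-fold and DHRS4 (a peroxisomal reductase) 1.66-fold. MAPK10 (the kinase JNK3), too low for the naming rule and picked for its size, had 1.29, 3.98 and 8.79 CPM in DPL, against 0, 0.359 and 2.63 CPM in LDPL and 0.269, 0.724 and 2.04 CPM in DLDPL (2.49 ± 0.45, adjusted p = 0.00235).

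The remaining rises were picked after their values were seen. SLC25A42 (the carrier of coenzyme A into mitochondria) had 10.2, 14.6 and 24.9 CPM in DPL, against 7.21, 8.87 and 11.3 CPM in LDPL and 5.29, 9.52 and 10.8 CPM in DLDPL. In 7 of 8 DPL libraries it was above every cross library (0.74 ± 0.13, adjusted p = 0.00228). FLAD1 (which makes FAD, the cofactor of complex II and of acyl-CoA dehydrogenases) had 24.4, 33.4 and 39.9 CPM in DPL, against 15.9, 21.1 and 25.7 CPM in LDPL and 20.1, 21.8 and 27.3 CPM in DLDPL (0.58 ± 0.10, adjusted p = 0.00107). ACOT8 (a peroxisomal thioesterase of acyl-CoAs) had 8.20, 8.64 and 9.96 CPM in DPL, against 5.29, 5.92 and 6.45 CPM in LDPL and 4.71, 6.03 and 7.95 CPM in DLDPL, without overlap. KCNMA1 (a potassium channel opened by calcium and voltage) rose 1.94-fold, at 4.58 to 7.09 CPM in DPL and 1.52 to 4.97 CPM in the crosses. FBXO7 (a subunit of a ubiquitin ligase) and PSAP (the precursor of the lysosomal saposins) rose 1.32-fold and 1.28-fold. FBXO7 exceeded every cross library in 7 and PSAP in 5 of 8 DPL libraries.

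Glycolysis went the other way in a few genes. Of 21 tested genes 3 fell and 0 rose, 15 had a negative change and the median was -0.20, against 2.22% falling over all genes. LDHA (the muscle form of lactate dehydrogenase) had 2751, 3973 and 4623 CPM in DPL, against 3931, 6589 and 7270 CPM in LDPL and 5016, 6669 and 8445 CPM in DLDPL. Every DPL library was below every DLDPL library, and 4 of 8 were below the lowest LDPL library. The fall was 1.68-fold (-0.75 ± 0.13, adjusted p = 0.00228). GPI (glucose-6-phosphate isomerase) had 571, 632 and 794 CPM in DPL, against 823, 926 and 1061 CPM in LDPL and 789, 977 and 1120 CPM in DLDPL. In 7 of 8 DPL libraries it was below every cross library (-0.54 ± 0.08, adjusted p = 0.000483). TPI1 fell in the pooled comparison (-0.41 ± 0.12, adjusted p = 0.0351), but lost its call in 9 of 32 other settings.

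Fast-fibre genes fell in 2 of 10 tested, against 2.22% falling over all genes. Both of them fell against each cross singly as well. The other 8 were not called, and the median was -0.20. PVALB (parvalbumin, a calcium buffer that speeds relaxation of fast fibres) had 2.02, 4.25 and 15.2 CPM in DPL, against 5.90, 16.7 and 105 CPM in LDPL and 13.2, 23.2 and 34.5 CPM in DLDPL. In 6 DPL libraries it was below every cross library, and it was the largest fall of the well-expressed genes called the same way, 4.96-fold (-2.31 ± 0.46, adjusted p = 0.00507). LDPL spanned a wide range, from 5.90 to 105 CPM. MYL1 (an essential light chain of fast myosin) had 10705, 12542 and 16279 CPM in DPL, against 15646, 19562 and 23001 CPM in LDPL and 11870, 19273 and 21982 CPM in DLDPL (-0.56 ± 0.12, adjusted p = 0.00895). PRKAG3 (the muscle subunit of AMP kinase) averaged 21.4 ± 6.59 CPM in DPL, 30.9 ± 8.00 in LDPL and 32.2 ± 10.7 in DLDPL, and was not called (-0.56 ± 0.18, adjusted p = 0.0674), though it passed in 4 other settings.

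The slow-fibre list had 2 rises of 10 tested genes, against 2.65% rising over all genes, and a median of 0.39. Its summed level was 11146, 14008 and 22527 CPM in DPL (lowest, median, highest). It was 11310, 13908 and 15215 CPM in LDPL and 8540, 13366 and 17233 CPM in DLDPL, so the summed medians were close. Both rising genes, CSRP3 (a Z-disc protein) and ANKRD2 (a stretch-responsive protein of the sarcomere), were called against DLDPL and not against LDPL. CSRP3 averaged 814 ± 357 CPM in DPL, 517 ± 194 in LDPL and 312 ± 167 in DLDPL (1.02 ± 0.27, adjusted p = 0.0263). ANKRD2 averaged 286 ± 116, 166 ± 83.5 and 110 ± 51.1 CPM in DPL, LDPL and DLDPL (1.08 ± 0.26, adjusted p = 0.0178). Without DPL replicate 23 CSRP3 lost its call and the median of the list was 0.18. Without DPL replicate 30 CSRP3, and without DPL replicate 11 ANKRD2, lost its call, and without the 3 libraries that stood apart both did. The troponins and light chain of slow fibres, TNNC1, TNNI1, TNNT1 and MYL3, had log2 changes of 0.32 to 0.60 and were not called.

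CA3 (carbonic anhydrase III, abundant in muscle) fell 1.75-fold. It had 2197, 2711 and 4247 CPM in DPL, against 2905, 5292 and 7431 CPM in LDPL and 3852, 5029 and 5643 CPM in DLDPL (-0.80 ± 0.15, adjusted p = 0.00431). CAPN6 (a calpain without protease activity) had 4.60, 13.7 and 16.1 CPM in DPL, against 15.3, 24.4 and 50.2 CPM in LDPL and 22.9, 33.3 and 50.5 CPM in DLDPL, with every DPL library below every DLDPL library (-1.32 ± 0.21, adjusted p = 0.000693). ITGB1BP2 (melusin, an integrin-binding protein of muscle) fell 2.07-fold, PENK (the precursor of enkephalins) 2.41-fold, RCN1 (a calcium-binding protein of the endoplasmic reticulum) 1.77-fold and PKDCC (a secreted kinase) 1.70-fold. PENK was low throughout, with at most 1.72 CPM in DPL and 3.61 in the crosses. ACBD6 (an acyl-CoA binding protein) fell 1.62-fold. With 1 library left out, PENK and ACBD6 each met the rule for both crosses in 5 of 24 fits. DMD (dystrophin), named after its value was seen, fell 1.37-fold, with 83.3, 123 and 140 CPM in DPL, against 138, 158 and 178 CPM in LDPL and 123, 166 and 203 CPM in DLDPL.

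The other falls named here were also picked after their values were seen. ALDH2 (the mitochondrial aldehyde dehydrogenase) ran against the direction of the other mitochondrial genes. It had 163, 170 and 255 CPM in DPL, against 218, 293 and 394 CPM in LDPL and 226, 264 and 345 CPM in DLDPL, and 7 of 8 DPL libraries were below every cross library (-0.62 ± 0.11, adjusted p = 0.00191). EEF2K (the kinase that slows translation elongation) had 55.8, 84.2 and 104 CPM in DPL, against 89.8, 112 and 181 CPM in LDPL and 87.6, 123 and 151 CPM in DLDPL (-0.58 ± 0.13, adjusted p = 0.00907). KIT (the receptor of stem cell factor) fell 2.98-fold, at 0.245 to 1.32 CPM in DPL and 0.596 to 4.10 CPM in the crosses. CPXM1 (a secreted protein of the carboxypeptidase family) fell 3.08-fold, TBX18 (a transcription factor of mural cells) 2.06-fold, ELK3 (an ETS-family transcription factor) 1.64-fold and CD82 (a tetraspanin) 1.55-fold. The highest DPL library was at 2.85 CPM for CPXM1 and at 3.11 CPM for TBX18, inside the range of LDPL for both.

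**Figure D4:**
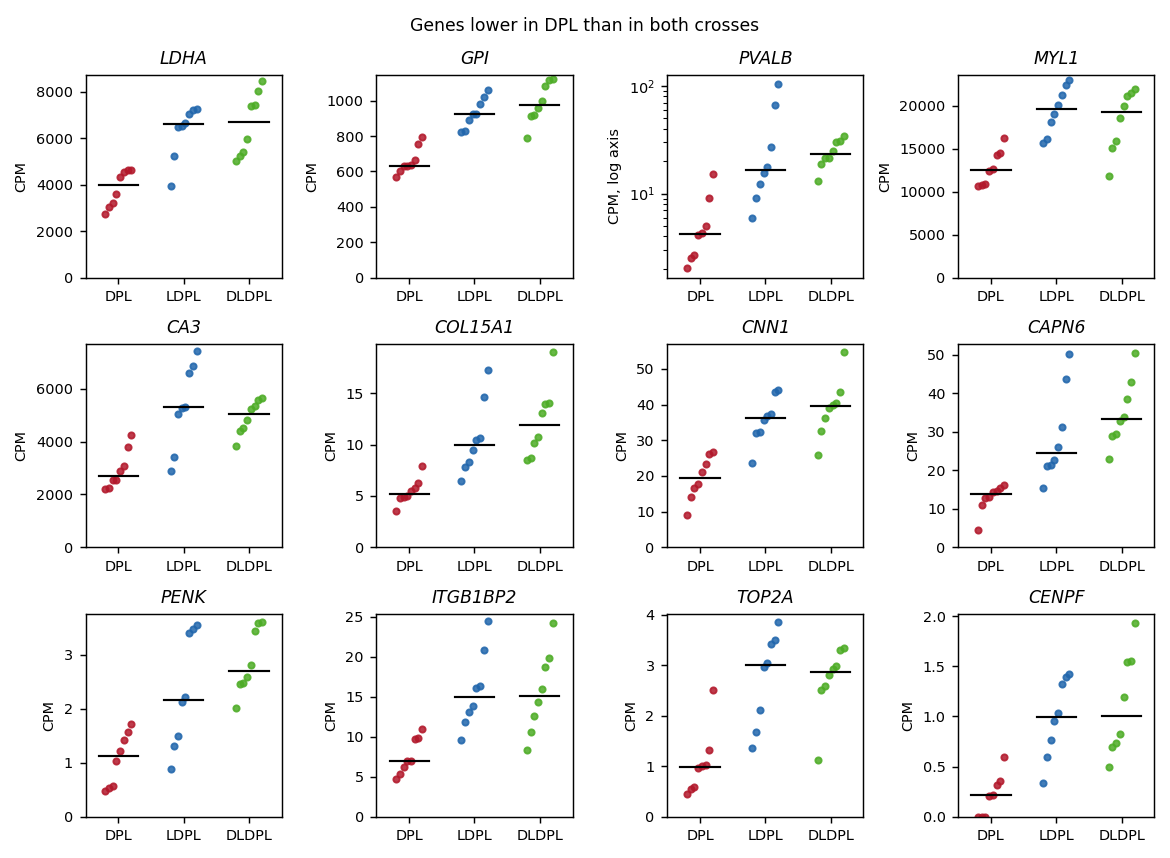
CPM per library of 12 genes lower in DPL than in both crosses, with 8 libraries each of DPL, LDPL and DLDPL and a black line at the median (y axis from 0, except PVALB on a log axis). For LDHA, CAPN6 and COL15A1 every DPL library lies below every DLDPL library.

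Some collagen and fibroblast genes fell in DPL. Of 30 tested, 7 fell and 0 rose, against 2.22% falling over all genes, 25 had a negative change and the median log2 change was -0.34. In bulk muscle, fewer fibroblasts and less RNA per fibroblast cannot be told apart. Summed over the list the level was 852, 1590 and 2961 CPM in DPL (lowest, median, highest), 1235, 2240 and 2832 CPM in LDPL and 1760, 2383 and 3796 CPM in DLDPL, so single libraries of each group overlapped. The count was 4 without DPL replicate 19, 3 without DPL replicate 23 and 4 without DPL replicate 30, and 10 were called without DPL replicate 16. Without the 3 libraries that stood apart it was 3. COL15A1 (a basement membrane collagen) had 3.53, 5.23 and 7.87 CPM in DPL, against 6.44, 9.94 and 17.3 CPM in LDPL and 8.51, 11.9 and 19.0 CPM in DLDPL. It fell against both crosses, 2.10-fold, with 7 of 8 DPL libraries below every cross library (-1.07 ± 0.18, adjusted p = 0.00107).

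The fibrillar collagens fell in the pooled comparison without passing against LDPL alone. COL3A1 averaged 227 ± 114 CPM in DPL, 512 ± 192 in LDPL and 702 ± 283 in DLDPL (-1.40 ± 0.29, adjusted p = 0.00633). COL1A2 averaged 88.6 ± 46.5 CPM in DPL, 157 ± 54.5 in LDPL and 211 ± 71.5 in DLDPL (-1.04 ± 0.26, adjusted p = 0.0189). COL5A1, COL5A2 and COL5A3, which join the same fibrils, fell by -0.88, -0.73 and -0.68, and FAP (a protease of activated fibroblasts) by -0.69. Outside the list, and chosen after the values were seen, the basement membrane gene NID2 (1.81-fold), COL21A1 (2.06-fold), SPOCK2 (2.08-fold), PAPLN (2.40-fold) and FBN3 (4.51-fold) fell against both crosses. FBN3 (a fibrillin) was near the limit of detection, at 0 to 0.491 CPM in DPL and 0.352 to 1.99 CPM in the crosses.

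Markers of the other cell types that muscle holds were compared in the same way. No member was called among 11 endothelial, 12 macrophage, 9 lymphocyte, 10 adipocyte, 3 blood and 3 nerve markers, where 4.87% of all genes were called. Their summed levels overlapped. All 3 blood markers had a negative change (median log2 change -0.85), at a summed 31.0 to 139 CPM in DPL and 28.2 to 515 CPM in the crosses. A lack of calls among 3 genes does not show equal blood content. Macrophage markers ranged from 55.1 to 152 CPM in DPL and 51.2 to 159 CPM in the crosses, and adipocyte markers from 579 to 776 CPM in DPL and 604 to 907 CPM in the crosses. Among 11 smooth muscle markers 1 fell, CNN1 (calponin), which had 8.95, 19.4 and 26.7 CPM in DPL, against 23.7, 36.2 and 44.0 CPM in LDPL and 25.8, 39.5 and 54.7 CPM in DLDPL (-0.95 ± 0.16, adjusted p = 0.00122). The summed level of these 11 was 5904 to 11130 CPM in DPL and 4083 to 8514 CPM in the crosses.

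Of 12 cell cycle genes, which were low in all groups, 2 fell, 1 rose and the median was -0.43. Over all genes 2.22% fell and 2.65% rose. TOP2A (the topoisomerase of dividing cells) had 0.449, 0.980 and 2.50 CPM in DPL, against 1.36, 3.01 and 3.86 CPM in LDPL and 1.13, 2.86 and 3.35 CPM in DLDPL (-1.38 ± 0.26, adjusted p = 0.00427). CENPF (a kinetochore protein) was at 0 in 3 DPL libraries and at most 0.597 CPM in DPL, against 0.337 to 1.43 CPM in LDPL and 0.493 to 1.93 CPM in DLDPL (-2.24 ± 0.47, adjusted p = 0.00676). CENPK, another kinetochore protein, fell 1.65-fold. TPX2 (a spindle factor) rose, against this direction, but lost its call in 14 of 32 other settings. Of 16 myogenic regulators 1 rose and 1 fell (6.25% each way, beside 2.65% rising and 2.22% falling over all genes), so each direction rests on 1 gene. MYF5 (a regulator of satellite cells) averaged 2.73 ± 1.53 CPM in DPL, 0.805 ± 0.474 in LDPL and 1.19 ± 0.787 in DLDPL (1.46 ± 0.34, adjusted p = 0.0114). MYMK (needed for myoblast fusion) averaged 0.800 ± 0.387, 1.40 ± 0.487 and 2.08 ± 0.792 CPM in DPL, LDPL and DLDPL (-1.10 ± 0.26, adjusted p = 0.0154). MSTN (myostatin) had 3.45, 9.90 and 13.7 CPM in DPL, against 5.05, 15.3 and 30.3 CPM in LDPL and 8.23, 14.6 and 39.2 CPM in DLDPL, and was not called (-0.80 ± 0.29, adjusted p = 0.109). MYOD1 was not called either (-0.59 ± 0.25, adjusted p = 0.183), except without DPL replicate 7 (adjusted p = 0.0271).

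Some chaperones rose. Of 20 heat shock and chaperone genes 4 rose and 1 fell, against 2.65% rising and 2.22% falling over all genes. In the list 19 had a positive change and the median was 0.44. On the RPKM scale 0 of the 20 were called higher, with a median of 0.26. HSP90AB1 (the constitutive HSP90) had 920, 1200 and 1756 CPM in DPL, against 659, 823 and 1042 CPM in LDPL and 594, 757 and 1089 CPM in DLDPL (0.58 ± 0.12, adjusted p = 0.00547). With 1 library left out, HSP90AB1 met the rule for both crosses in 11 of 24 fits. HSP90AA1 (the inducible form, 0.68 ± 0.17) and the HSP90 partners FKBP4 (0.51 ± 0.11) and STIP1 (0.48 ± 0.14) rose in the pooled comparison. The gene that fell was SMYD1 (a muscle methyltransferase that works with HSP90), by -0.66 ± 0.16. Of 20 immediate early genes 17 had a positive change, with a median of 0.52. Their summed level was 1550, 3046 and 5522 CPM in DPL (lowest, median, highest) and 308, 1945 and 3307 CPM in the crosses. Only EGR1 was called (1.31 ± 0.35, adjusted p = 0.0291), 5% of the list beside 2.65% rising over all genes. It had 86.8 to 595 CPM in DPL and 8.34 to 256 CPM in the crosses. Its call was lost without DPL replicate 11, 19 or 21, and 7 immediate early genes were called without DLDPL replicate 28.

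Interferon-stimulated genes, the antiviral programme, had a positive change in all 30 tested, with a median log2 change of 0.91. Of the 30, 4 were called higher in DPL (13.3%, against 2.65% over all genes): IRF9, IFIT5, UBE2L6 and IFI44L. None passed against each cross singly. IRF9 (the DNA-binding part of the interferon-activated complex) had 7.62, 18.1 and 29.2 CPM in DPL, against 6.11, 8.91 and 15.6 CPM in LDPL and 7.51, 8.98 and 20.1 CPM in DLDPL (0.88 ± 0.20, adjusted p = 0.0121). Summed over the 30 genes the level was 176, 365 and 709 CPM in DPL, 112, 189 and 429 CPM in LDPL and 150, 163 and 959 CPM in DLDPL. The library at 959 CPM was DLDPL replicate 32, the highest of all 24, while the other 7 DLDPL libraries lay between 150 and 185 CPM. Without it 24 of the 30 were called higher and 0 lower, with a median of 1.23, and without the 3 libraries that stood apart 23 were. Replicate 32 is among these 3 and stood apart partly through IRF9, IFIT5 and IFI44L of this same list. The larger counts without it are therefore no independent check. Leaving out any other single library gave 1 to 6 calls. IFIT5 lost its call in 21 of 32 other settings and IFI44L in 2. Macrophage and lymphocyte markers, which could bring such transcripts, were not called, and their part in this result was not tested. ERAP1 (which trims peptides for antigen presentation) rose in the pooled comparison and against LDPL, with 15.6 ± 4.66 CPM in DPL, 6.88 ± 3.93 in LDPL and 10.1 ± 2.38 in DLDPL (0.91 ± 0.21, adjusted p = 0.0114).

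**Figure D5:**
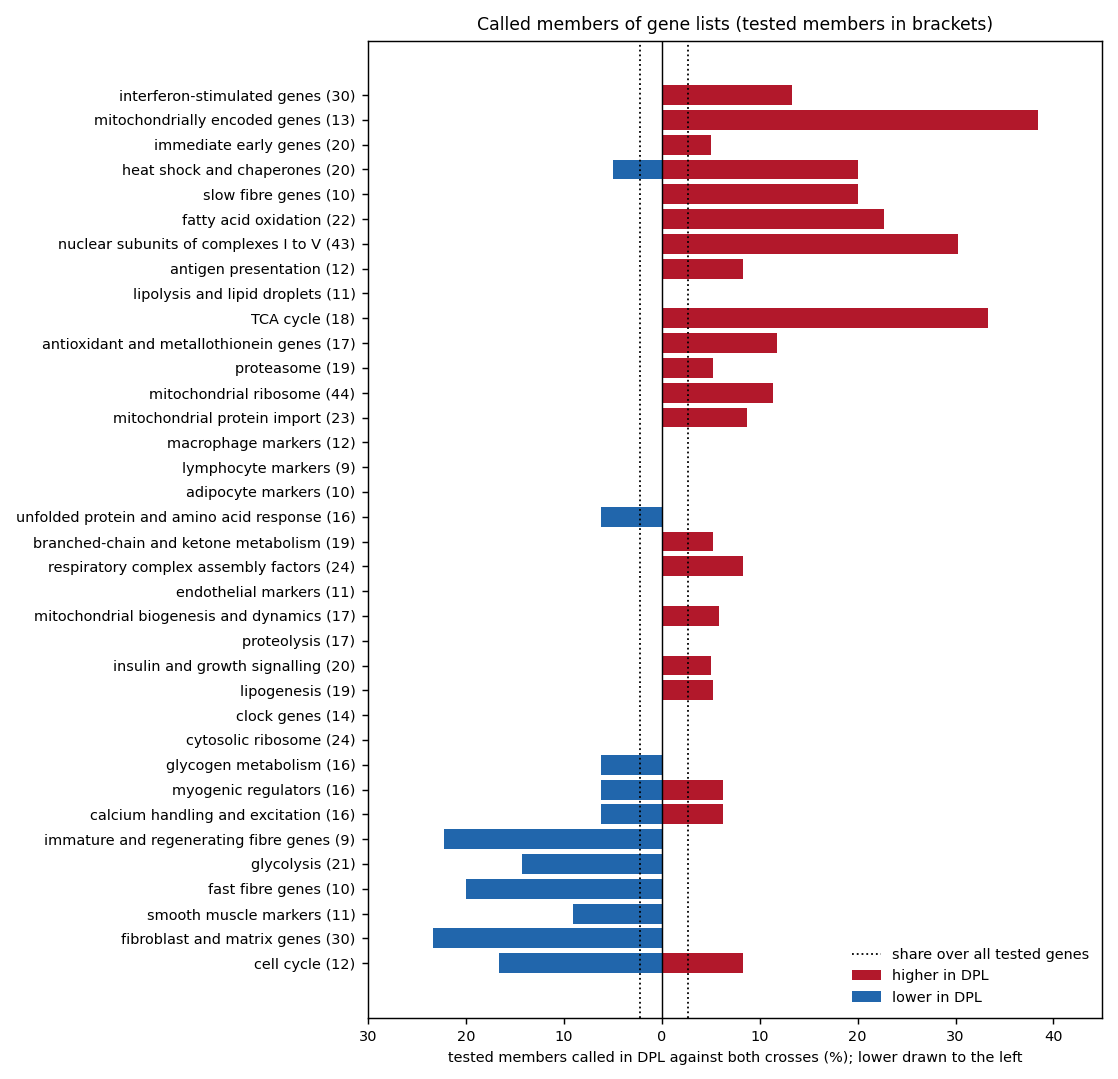
Percent of tested members of each gene list that were called higher (red, to the right) or lower (blue, to the left) in DPL against both crosses, with the number tested in brackets. Dotted lines mark 2.65% higher and 2.22% lower over all 12477 genes.

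Few fat genes were called in the pooled comparison, in which 2.65% of all genes rose and 2.22% fell. Of 19 lipogenic genes 1 rose, ACSS2 (acetate activation, 0.45 ± 0.12, adjusted p = 0.022, lost without DPL replicate 21 and by limma), and 0 fell. Of 10 adipocyte and 11 lipolysis genes 0 were called, but pooling averages unlike medians here. The adipocyte median log2 change was 0.48 against LDPL and -0.31 against DLDPL. For lipolysis it was 0.60 against LDPL and 0.02 against DLDPL. SCD (stearoyl-CoA desaturase) had 3.64, 8.07 and 25.7 CPM in DPL, against 4.91, 15.6 and 49.1 CPM in LDPL and 8.68, 24.3 and 448 CPM in DLDPL, and was not called (-1.75 ± 0.62, adjusted p = 0.0959). FASN (fatty acid synthase) had 2.19, 9.91 and 20.0 CPM in DPL, against 4.85, 9.77 and 17.7 CPM in LDPL and 6.89, 11.9 and 199 CPM in DLDPL (-1.11 ± 0.52, adjusted p = 0.223). The DLDPL group held 1 library far above the rest for SCD. PPARG (a regulator of fat cells, -0.08 ± 0.28) and UCP3 (a mitochondrial uncoupling protein, 0.09 ± 0.19) were not called, nor was any of 14 clock, 17 proteolysis or 24 cytosolic ribosome genes. GRB14, which restrains insulin signalling, rose at a low level, with 1.22 ± 0.840 CPM in DPL, 0.442 ± 0.284 in LDPL and 0.545 ± 0.254 in DLDPL (1.30 ± 0.34, adjusted p = 0.0268). Its call was lost without DPL replicate 7 or 21 and by limma on the RPKM.

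DLDPL and LDPL were compared with each other to see where the pooled reference was uneven. By edgeR 0 of 12477 genes were called (0%), 871 had an unadjusted p under 0.05, and DESeq2 called 16. The genes with a symbol and the smallest p were RNF25, MT1X and PPP1R1B. RNF25 (a ubiquitin ligase) averaged 0.502 ± 0.166 CPM in DPL, 0.589 ± 0.286 in DLDPL and 1.61 ± 0.622 in LDPL (SD, n = 8 each), and it was called against LDPL (-1.69) and not against DLDPL (-0.24). Its pooled call (-0.96 ± 0.28, adjusted p = 0.0458) was lost in 19 of 31 other settings. MT1X, a metallothionein whose near-identical relatives can share reads, averaged 3.66 ± 0.883 CPM in DPL, 6.73 ± 4.05 in DLDPL and 2.62 ± 1.30 in LDPL. A further 106 genes were called against LDPL and not DLDPL, and 278 against DLDPL and not LDPL, but the difference between the single comparisons is the test between the crosses, which called none of them.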

How the data were processed

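The authors deposited 1 file per library with each gene's raw count of uniquely mapped reads, RPKM, gene length and a coverage column. The deposited RPKM equal the counts over the deposited gene length and library total on the usual per-kilobase scale, and the other columns beside counts served as checks. In the submitters' processing notes, Bowtie 0.12.2 and Cufflinks are the tools and mm8, a mouse build, is the only build. Not given in the sources used here are the pig build and annotation, so no positions are printed. Per the labels' protocols, the library kit was NEB Next Ultra, which does not mark strand, so overlapping genes on opposite strands cannot be told apart.

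A gene that a file does not list was given a count of 0. Genes were filtered with filterByExpr of edgeR 4.0.16 in R 4.3.3 (minimum count 10, minimum total 15), which left 12477 genes with 99.96% of the reads. TMM factors scaled the counts, and a quasi-likelihood model of 3 groups was fitted over the 24 libraries (8 DPL, 8 LDPL, 8 DLDPL). Contrasts were DPL minus the mean of both crosses, DPL minus each cross and DLDPL minus LDPL. P-values were adjusted by Benjamini-Hochberg over all tested genes and called under 0.05. Gene-level adjusted p-values come from edgeR unless another tool is named. SE is the size of the log2 change over the square root of F, and SDs are over 8 libraries. The steps were tested on simulated data. Limma 3.58.1 on log2(RPKM + 1) and DESeq2 1.42.0 were alternatives, beside other filters and scalings and leaving out each library.

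Symbols matched 10836 of 17930 identifiers (60.4%) in the reference table of names, and identifiers without one held 14.6% of the reads. List members without a matched symbol or with too few reads were not tested. The members and gene lists were chosen with earlier results of these data known. The named genes are the 12 largest rises and 12 largest falls with a symbol among genes called the same way that reach a mean RPKM of 5 in a group, up to 3 called members of each of 43 lists by adjusted p, a panel of muscle and fat genes, and the 3 smallest p between the crosses. A few genes that meet this rule are not reported here. No 2 libraries of 1 group agreed within sampling noise (smallest chi-square per degree of freedom 33.7). A motif search in promoters was planned and was not run, since no sequence was at hand.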

Additional observations from a re-analysis of the deposited data

Results flagged for a closer look

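Single libraries lay far from the other 7 of their group in 25 of 288 checks (Dixon's 95% gap test on log2(CPM + 0.1)). Chance flags about 1 group in 20. The causes were not tested.

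DPL replicate 23 was highest of its group for UQCRC1 (442 CPM), NDUFV1 (157 CPM), TXN2 (98.8 CPM) and PKDCC (107 CPM), and lowest for SMYD1 (8.75 CPM). LDPL replicate 10 was lowest of its group for 5 mitochondrial genes, NDUFA9 (85.3 CPM), HADHA (176 CPM), AIFM1 (34.7 CPM), SDHA (99.3 CPM) and MDH2 (336 CPM), and highest for PHGDH (1.99 CPM). DLDPL replicate 32 was highest of its group for the interferon-stimulated IRF9 (20.1 CPM), IFIT5 (17.3 CPM) and IFI44L (42.0 CPM), and for COX5A (278 CPM).

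Among the other libraries, DPL replicate 19 was lowest for CAPN6 (4.60 CPM) and AIFM1 (40.2 CPM), and DPL replicate 16 for the proteasome gene PSMD13 (81.1 CPM). LDPL replicate 9 was lowest for COL1A2 (58.8 CPM), and LDPL replicate 4 had the lowest median coverage of long genes (93.8%). DLDPL replicate 29 was highest for SCD (448 CPM) and DLDPL replicate 20 for MSTN (39.2 CPM). DLDPL replicate 28 was lowest for ERAP1 (5.00 CPM) and TOP2A (1.13 CPM), and DLDPL replicate 18 for EGR1 (8.34 CPM).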

How the results depend on the processing

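With DESeq2 the counts of called genes were higher: 925 pooled, 546 against LDPL, 688 against DLDPL, 16 between the crosses and 277 the same way in both crosses. Over all 32 libraries in 1 fit, 366 were called against LDPL and 180 the same way. Without LDPL replicate 10, DPL replicate 23 and DLDPL replicate 32, a setting chosen after seeing the data, 103 were called against LDPL and 60 the same way. With no filter on low counts 2 genes were called between the crosses. Asking only for a pooled call and 1 sign in both crosses gave 608 genes, and asking for at least 1.5-fold in each single comparison gave 62. With any single library left out, the pooled count ranged from 441 to 736, that against LDPL from 89 to 284, that against DLDPL from 213 to 480, that between the crosses from 0 to 2, and that of the same way from 56 to 135. The count against LDPL was 101 without LDPL replicate 5, 89 without LDPL replicate 10, 123 without LDPL replicate 14 and 122 without DPL replicate 21. The count against DLDPL was 213 without DLDPL replicate 6, 251 without DPL replicate 11 and 249 without DLDPL replicate 18. The cause was not tested. Of the 100 genes, 76 kept the pooled call in all 32 settings and 31 met the rule in all of them. For the 93 named genes, 197 values lost a call, 6 gained one, and no called value changed sign. Values that were not called did change sign in some settings: PPARG ranged from -0.19 to 0.16, PPARGC1A from -0.65 to 0.10 and UCP3 from -0.14 to 0.21. No paired analysis was possible because DPL, LDPL and DLDPL share no replicate number. Genes under about 1 CPM rest on few reads, and their fold changes are imprecise.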

Other observations

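Lists that the report has not described held few called genes each. In the direction of the calls their shares were above those over all tested genes, 2.65% higher and 2.22% lower, but rest on few genes. Of 17 antioxidant and metallothionein genes 2 rose and 0 fell, with a median log2 change of 0.24. CAT (catalase, which breaks down hydrogen peroxide) had 208, 271 and 399 CPM in DPL (lowest, median and highest library), against 155, 197 and 257 CPM in LDPL and 194, 220 and 264 CPM in DLDPL (0.41 ± 0.11, edgeR adjusted p = 0.0318). It was no longer called in 6 of 32 other settings, among them without DPL replicate 7, 19, 23 or 26. TXN2 (mitochondrial thioredoxin) rose by 0.33 ± 0.09 and lost its call in 11 of 32 other settings, 8 of which leave out 1 library. Of 19 proteasome genes 17 had a positive change, with a median of 0.20, and only PSMD13 was called (0.39 ± 0.09, adjusted p = 0.0168, lost in 2 of 32 other settings). Of 19 genes of branched-chain amino acid and ketone metabolism only DBT rose (0.41 ± 0.12, adjusted p = 0.0447), and it lost its call in 18 of 32 other settings.

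Among genes of calcium handling and excitation, JPH1 (which ties the calcium store to the surface membrane) had 256, 375 and 543 CPM in DPL, against 372, 519 and 627 CPM in LDPL and 373, 484 and 566 CPM in DLDPL, with 4 of 8 DPL libraries below every cross library (-0.40 ± 0.11, adjusted p = 0.0339, lost in 11 of 32 other settings). Of 16 genes of the unfolded protein and amino acid response only PHGDH (the first enzyme of serine synthesis) fell, at 0.0695 to 0.409 CPM in DPL, 0.254 to 1.99 CPM in LDPL and 0.246 to 1.59 CPM in DLDPL (-1.87 ± 0.44, adjusted p = 0.0142). Of 9 genes of immature and regenerating fibres 2 fell, MYMK and NCAM1 (an adhesion molecule of satellite cells and denervated fibres), which changed by -0.69 ± 0.19 (adjusted p = 0.0352, lost in 8 of 32 other settings).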
